A study of Homo sapiens with 15 samples.

Results

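MVP and 7 genes of glutathione and NRF2 detoxification were followed across BT474 breast cancer cells and 4 clones of them that resist trastuzumab emtansine. The listed genes were MVP, GSTA4, NQO1, GCLM, GCLC, TXNRD1, HMOX1 and NFE2L2. They were taken by gene symbol, with the probe set of highest mean standing for a gene, and 5 of the 8 could be measured out of 12147 genes tested. MVP, GSTA4, TXNRD1, HMOX1 and NFE2L2 had 1 probe set each, brighter than the dim limit on all 15 arrays. NQO1, GCLM and GCLC had no symbol among the probe sets and are not analysed here. MVP was chosen because earlier work on these data had shown it higher in every clone, so its difference from the parental line is given as a description with no test. The other members were listed with those results known as well, and their calls are read only against the share of all genes called.

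BT474 is an established human breast cancer line that carries many copies of the HER2 gene. Trastuzumab emtansine, or T-DM1, joins the HER2 antibody trastuzumab to the maytansinoid DM1, which blocks microtubules once the conjugate has been taken up and broken down in lysosomes. The groups were C#1, C#2, C#3 plus C#6, all of them resistant clones, and the sensitive parental BT474 line, with 3 arrays each. The clones were grown from single cells of cultures long exposed to T-DM1 and were then held in 5 nM of it for 3 months, while the parental group was not described as exposed. Each clone is taken as 1 isolate, its arrays being repeats of that isolate, and no unselected clone was measured. Between C#1 and C#2, limma called 0% of all genes different, against 9.01% to 16.8% in the other pairs of clones. Whether C#1 and C#2 arose separately was not tested, so their agreement may not count as that of separate isolates. The labels call the arrays of a group biological replicates without saying what was repeated, and the p-values measure only the spread between them. Selection, cloning from a single cell and long growth in the drug cannot be told apart. In RNA from whole cultures, a change in every cell and a change in some of the cells cannot be told apart either.

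MVP, the major vault protein, builds the shell of the vault, a large hollow particle of the cytoplasm that also holds TEP1, PARP4 and small vault RNAs, and it has long been studied as a marker of drug resistance in cancer cells. NFE2L2 encodes NRF2, a transcription factor that KEAP1 marks for breakdown. Under oxidants or electrophiles NRF2 escapes and binds antioxidant response elements near genes that make glutathione (GCLC, GCLM), reduce thioredoxin (TXNRD1) or quinones (NQO1), break down heme (HMOX1), or attach glutathione to reactive compounds. GSTA4 is a glutathione transferase that handles 4-hydroxynonenal, a product of oxidised lipids.

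The sequences before 4 transcription starts are shown because NRF2 acts through a short DNA element. Each line holds the 250 bases before a RefSeq start in GRCh38.p14, written 5′ to 3′ on the strand of the gene, and capitals mark a match to the core of the antioxidant response element, TGACNNNGC, on either strand. MVP (chr16:29820144-29820393, plus strand) and GSTA4 (chr6:52995285-52995534, minus strand) are the members that were higher in every clone. TXNRD1 (second window, chr12:104286782-104287031, plus strand) is a classical NRF2 target that was not, and GPX2 (chr14:64942746-64942995, minus strand) is a target outside the list that was.
MVP: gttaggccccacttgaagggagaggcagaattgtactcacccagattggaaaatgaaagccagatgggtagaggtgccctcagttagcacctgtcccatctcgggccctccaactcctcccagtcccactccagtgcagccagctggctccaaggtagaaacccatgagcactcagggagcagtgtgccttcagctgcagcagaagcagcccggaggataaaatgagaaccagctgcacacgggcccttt
GSTA4: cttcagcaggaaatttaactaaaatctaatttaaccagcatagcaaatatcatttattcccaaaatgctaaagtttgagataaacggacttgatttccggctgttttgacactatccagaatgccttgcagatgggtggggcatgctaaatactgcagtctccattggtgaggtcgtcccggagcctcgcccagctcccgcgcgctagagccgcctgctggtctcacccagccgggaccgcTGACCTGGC
TXNRD1: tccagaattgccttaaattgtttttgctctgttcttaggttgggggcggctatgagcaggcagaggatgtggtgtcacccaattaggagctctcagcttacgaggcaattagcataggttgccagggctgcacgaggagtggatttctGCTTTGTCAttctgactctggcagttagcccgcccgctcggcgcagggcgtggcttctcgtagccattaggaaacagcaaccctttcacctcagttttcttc
GPX2: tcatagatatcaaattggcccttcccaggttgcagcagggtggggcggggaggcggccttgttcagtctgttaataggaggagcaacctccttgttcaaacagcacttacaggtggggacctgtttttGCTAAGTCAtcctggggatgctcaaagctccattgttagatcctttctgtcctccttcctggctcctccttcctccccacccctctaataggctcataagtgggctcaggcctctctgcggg

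The MVP line has no capitals, and neither of the other 2 MVP windows held the core. In GSTA4 the match TGACCTGGC ended at the last base before the start. The match in TXNRD1 lay 102 bases before the start and the one in GPX2 122 bases before it, both on the opposite strand. Over windows of 250 bases before and 50 after a start, 7 of the 8 listed genes had 11 windows in the RefSeq table. Of these, 4 windows (1 of GSTA4, 1 of GCLM and 2 of TXNRD1) held the core, against 13.3% of 35116 windows of the same length. The AP-1 letters TGANTCA, whose reverse complement is the same pattern and which can overlap the first, were in 0 of the 11 and in 7.71% of all windows. A match is a run of letters and does not show that a factor binds there. The windows of NQO1 and GCLC, named above as NRF2 targets, held no match either. A window without a match therefore does not show that a gene lacks the element, which may lie outside the window.

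The arrays were alike in brightness, with upper quartiles between 5.80 and 5.96 on the log2 scale. Luminal epithelial markers fixed for the check were present, all 7 with a symbol passing the dim limit. Their summed log2 level per array ranged from 62.7 to 66.0 in the clones and from 64.3 to 64.7 in the parental line. KRT5 of the basal list, DCN and LUM of the fibroblast list and PECAM1 of the endothelial list lay below the limit. KRT14 of the basal list, VWF of the endothelial list and CD14 of the leukocyte list passed it, at 3.74 to 4.49, 3.73 to 4.17 and 3.33 to 3.94 over the 15 arrays, and their part in the results was not tested. GRB7, a neighbour of the HER2 gene in its amplified region, averaged 10.31 in C#1, 10.15 in C#2, 9.50 in C#3 and 9.31 in C#6, against 10.36 in the parental line (log2, n = 3 each). HER2 itself (ERBB2) is not analysed here.

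MVP was 2.00 to 2.54 times higher in the resistant clones. Its log2 level was 7.89, 7.88 and 7.40 in C#1, 7.93, 7.68 and 7.51 in C#2, 7.86, 8.12 and 7.79 in C#3, and 7.93, 8.19 and 8.04 in C#6, against 6.78, 6.65 and 6.70 in parental cells. Every clone array lay above every parental array, a pattern that 3.04% of all genes shared. The differences, clone minus parental, were 1.02 in C#1, 1.00 in C#2, 1.21 in C#3 and 1.35 in C#6 (SE 0.14 each), or 2.02-, 2.00-, 2.32- and 2.54-fold. By size of increase MVP stood 47th of 12147 genes in C#1, 50th in C#2, 15th in C#3 and 37th in C#6. Leaving out any 1 array kept the differences between 0.89 and 1.41. The clones did not separate by MVP: the order of means was C#6, C#3, C#1, C#2, and the F test among the 4 clones gave an adjusted p of 0.2. The widest gap, C#2 minus C#6, was -0.35 (95% interval -0.65 to -0.04, adjusted p = 0.143).

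**Figure D1:**
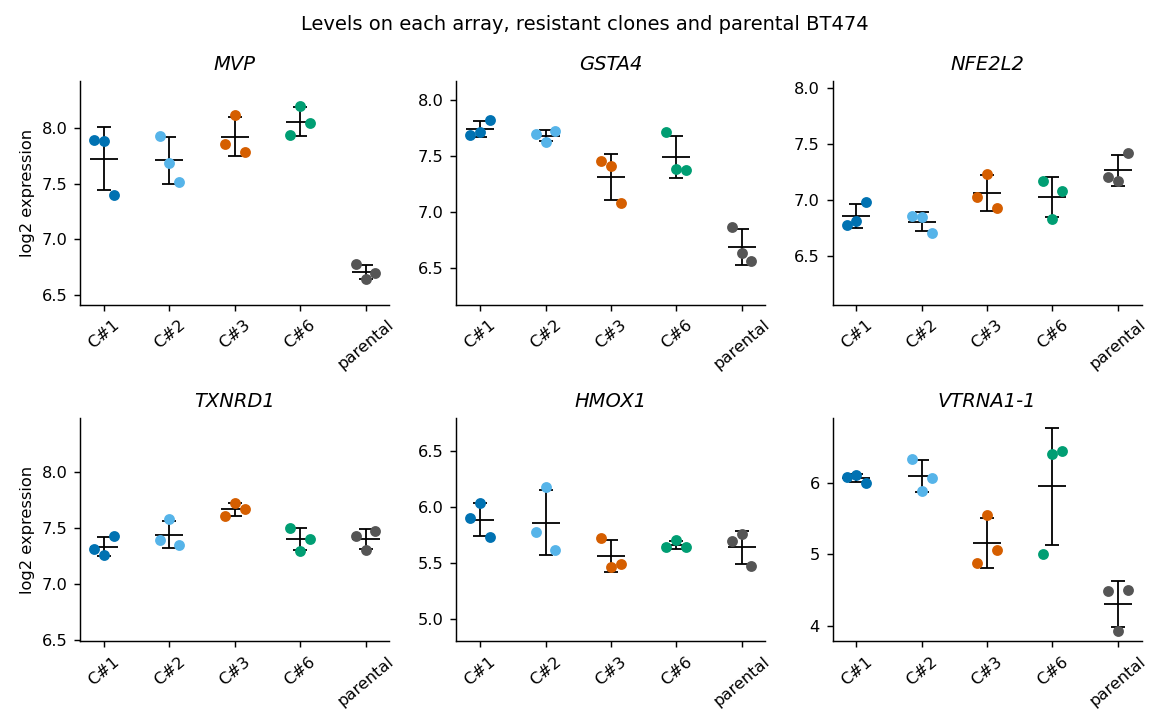
Log2 expression (y axis) of the 5 measured members and of VTRNA1-1 on each array, for the 4 resistant clones and parental BT474 (x axis). Points are arrays, the long bar is the mean and the whiskers are 1 SD (n = 3); the y axes do not start at 0. All MVP and GSTA4 points of the clones lie above the parental ones, while NFE2L2 lies below them in C#1 and C#2.

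VTRNA1-1, a short RNA polymerase III transcript carried inside vaults, rose in 3 of the 4 clones. Its log2 level was 6.08, 6.11 and 6.00 in C#1, 6.33, 5.88 and 6.07 in C#2, 4.87, 5.55 and 5.06 in C#3, and 5.01, 6.40 and 6.44 in C#6, against 4.48, 3.92 and 4.50 in parental cells. All 12 clone arrays lay above the parental arrays, as for 3.04% of all genes, and replicate 1 of C#6 lay well below the other C#6 arrays. The differences were 1.76 in C#1 (adjusted p = 0.000616), 1.79 in C#2 (0.000539) and 1.65 in C#6 (0.000663), or 3.39-, 3.46- and 3.13-fold (SE 0.29). In C#3 it was 0.86 with an adjusted p of 0.0525, which missed the threshold of 0.05. C#3 stood lower than C#1 by 0.90 (adjusted p = 0.0416) and lower than C#2 by 0.93 (adjusted p = 0.037). The first of these calls was lost without parental replicate 1, any 1 array of C#1, or C#3 replicate 1 or 3, and the second without any 1 array of C#2 or C#3 replicate 1 or 3. The small transcript VTRNA1-3 differed by -0.10 to 0.32 and was called in no clone (lowest adjusted p = 0.255). VTRNA1-2 and VTRNA2-1 were too dim to test, and the vault proteins TEP1 and PARP4 are not analysed here.

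GSTA4 rose in all 4 clones. Its log2 level was 7.69, 7.71 and 7.82 in C#1, 7.70, 7.62 and 7.72 in C#2, 7.45, 7.41 and 7.08 in C#3, and 7.71, 7.39 and 7.38 in C#6, against 6.86, 6.63 and 6.56 in parental cells. Every clone array lay above the parental ones, as for 3.04% of all genes, and C#1 and C#2 had the tightest triplets. The differences were 1.06 in C#1 (adjusted p = 3.24e-05), 1.00 in C#2 (4.91e-05), 0.63 in C#3 (0.00217) and 0.81 in C#6 (0.000191), with an SE of 0.12. On the linear scale these are 2.08-, 2.00-, 1.55- and 1.75-fold. The call held in every clone without any 1 array, with a highest adjusted p of 0.016. GSTA4 was listed with earlier results of these data known, so these calls are no independent support. Of all genes, 1.04% were called higher in all 4 clones. GSTA4 was also the member with most spread among clones: C#1 exceeded C#3 by 0.43 (95% interval 0.17 to 0.69, adjusted p = 0.0247). That call was lost without C#1 replicate 2 (0.44), C#1 replicate 3 (0.39) or C#3 replicate 3 (0.31). The gap of C#2 over C#3, 0.37, had an adjusted p of 0.0536, and the F test among the clones one of 0.0548.

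NFE2L2, the NRF2 gene, did not rise in any clone and fell in C#1 and C#2. Its log2 level was 6.77, 6.81 and 6.98 in C#1, 6.85, 6.85 and 6.70 in C#2, 7.03, 7.23 and 6.92 in C#3, and 7.17, 6.83 and 7.07 in C#6, against 7.20, 7.17 and 7.42 in parental cells. The C#1 and C#2 arrays all lay below the parental ones, as they did for 21.8% and 22.1% of all genes, and those of C#3 and C#6 overlapped them. NFE2L2 fell by 0.41 in C#1 (adjusted p = 0.0234) and by 0.46 in C#2 (adjusted p = 0.0122), or 1.33- and 1.38-fold. In C#3 and C#6 it differed by -0.20 (adjusted p = 0.276) and -0.24 (0.165), each with an SE of 0.12. Without parental replicate 3, the brightest of its group, the C#1 difference was -0.33 and the C#2 difference -0.38, and neither was called. The C#1 call was also lost without C#1 replicate 1 (-0.37) or C#1 replicate 2 (-0.39), and at -0.32 after renewed quantile normalization. No pair of clones differed in NFE2L2 by the test (lowest adjusted p = 0.16), so a fall confined to C#1 and C#2 is not shown.

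TXNRD1, the cytosolic thioredoxin reductase, was called in no clone. Its log2 level was 7.31, 7.26 and 7.43 in C#1, 7.39, 7.58 and 7.35 in C#2, 7.60, 7.72 and 7.67 in C#3, and 7.50, 7.30 and 7.40 in C#6, against 7.43, 7.30 and 7.48 in parental cells. The C#3 arrays lay above every parental array, as they did for 16.7% of all genes, and the nearest array of another clone was C#2 replicate 2. The differences from parental cells were -0.07 in C#1, 0.04 in C#2 and -0.0017 in C#6, within their SE of 0.10, and 0.26 in C#3 (adjusted p = 0.0773). The C#3 difference was called at 0.34 after renewed quantile normalization and at 0.27 with array weights. C#1 lay below C#3 by the test (C#1 minus C#3 -0.33, 95% interval -0.54 to -0.12, adjusted p = 0.0279), a call lost without C#1 replicate 1 (-0.32) or 2 (-0.30) or C#3 replicate 2 (-0.30) or 3 (-0.33).

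HMOX1, which opens the heme ring and is often used to read NRF2 activity, was called in no clone. Its log2 level was 5.90, 6.03 and 5.73 in C#1, 5.77, 6.18 and 5.62 in C#2, 5.72, 5.46 and 5.49 in C#3, and 5.64, 5.70 and 5.65 in C#6, against 5.69, 5.76 and 5.47 in parental cells. Every clone overlapped the parental range. The differences were 0.25 in C#1 (95% interval -0.04 to 0.54, adjusted p = 0.242), 0.22 in C#2 (adjusted p = 0.299), -0.08 in C#3 (0.749) and 0.02 in C#6 (0.931), with an SE of 0.14. With array weights the C#1 difference, 0.31, was called.

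Counting the 4 tested members, MVP aside, 1 rose and 1 fell in C#1 and in C#2, and 1 rose in C#3 and in C#6. The share of all genes called was 17.2% in C#1, 16.9% in C#2, 17.2% in C#3 and 22.4% in C#6. Higher calls made up 6.03%, 5.47%, 6.22% and 7.73% of all genes in that order of clones, and lower calls 11.2%, 11.5%, 11.0% and 14.7%. The median difference of these 4 members was 0.09 in C#1, 0.13 in C#2, 0.09 in C#3 and 0.01 in C#6, against -0.02, -0.02, -0.0018 and -0.02 over all genes. The 4 comparisons share the parental arrays, so their agreement is not independent. C#1 and C#2, between which 0% of all genes were called, may also not be separate isolates. Among the 5 members, the F test of differences between clones called 0 with limma, against 22.5% of all genes, and 2 had an unadjusted p below 0.05.

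Pairwise, C#1 and C#3 differed in 2 of the 5 members (GSTA4 and TXNRD1), where 16.8% of all genes were called. In the other 5 pairs limma called 0 of 5 members, against 0% of all genes for C#1 and C#2, 12.7% for C#1 and C#6, 15.8% for C#2 and C#3, 11.2% for C#2 and C#6, and 9.01% for C#3 and C#6. Over all 30 member differences between clones, 10 had an unadjusted p below 0.05. Both calls were lost when the 6 arrays of the pair were fitted alone.

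**Figure D2:**
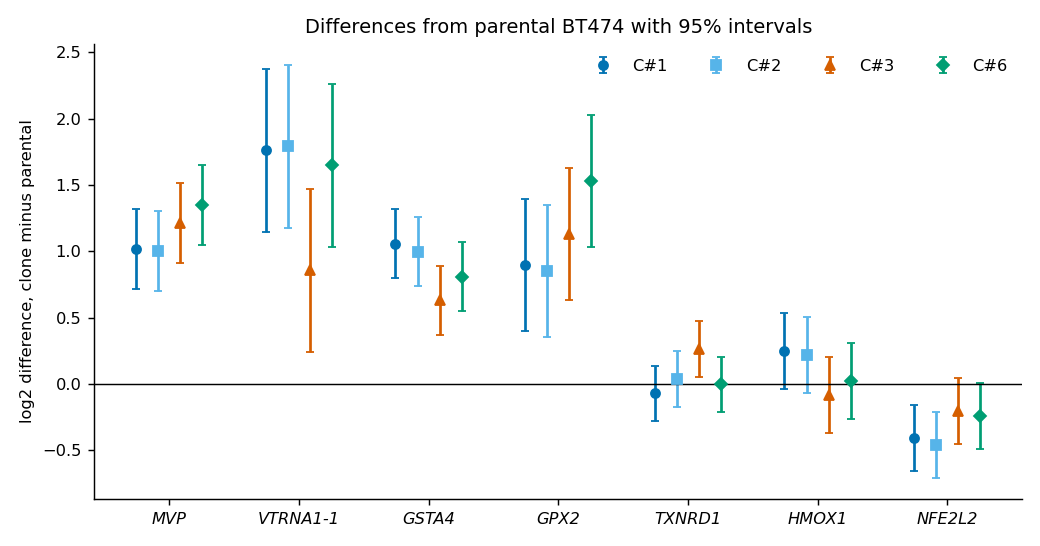
Log2 difference of each clone from parental BT474 (y axis) for MVP, VTRNA1-1, GSTA4, GPX2, TXNRD1, HMOX1 and NFE2L2 (x axis), with 95% intervals from the fit to 15 arrays. MVP, VTRNA1-1, GSTA4 and GPX2 lie above 0 in every clone. The HMOX1 intervals include 0 in every clone, and those of TXNRD1 do except in C#3 (0.06 to 0.47, not called). The NFE2L2 points lie below 0, with intervals that include 0 in C#3 and C#6. The MVP intervals are a description and no test, since MVP was chosen for being higher in every clone.

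The wider pathway was read from lists of 138 genes with the members left out, of which 84 had a symbol and 76 passed the dim limit. In C#1, 9 of the 76 rose and 6 fell. In C#2, 12 rose and 7 fell. In C#3, 12 rose and 6 fell, and in C#6, 12 rose and 5 fell. The called shares were 19.7%, 25.0%, 23.7% and 22.4% in that order, against 17.2%, 16.9%, 17.2% and 22.4% of all genes. They were thus above the share of all genes in C#1, C#2 and C#3 and alike in C#6. Higher calls made up 6.03%, 5.47%, 6.22% and 7.73% of all genes, and lower calls 11.2%, 11.5%, 11.0% and 14.7%. No set test was run, and the lists were chosen with earlier results known. Higher calls outnumbered lower ones in the lists, while over all genes they were 35.0% of the calls in C#1, 32.3% in C#2, 36.2% in C#3 and 34.5% in C#6. That split moved with scaling: after renewed quantile normalization 47.9%, 47.8%, 49.7% and 50.3% of all calls were higher, and the lists counted 11 up and 5 down in C#1, 13 and 3 in C#2, 15 and 4 in C#3, and 16 and 3 in C#6. With arrays centred on their median it moved the other way, to 31.7%, 27.4%, 32.1% and 30.9% of all calls higher. The lists then counted 9 up and 6 down in C#1, 8 and 7 in C#2, 11 and 6 in C#3, and 11 and 6 in C#6. The medians of the 76, as deposited, were 0.06, 0.08, 0.07 and 0.06.

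**Figure D3:**
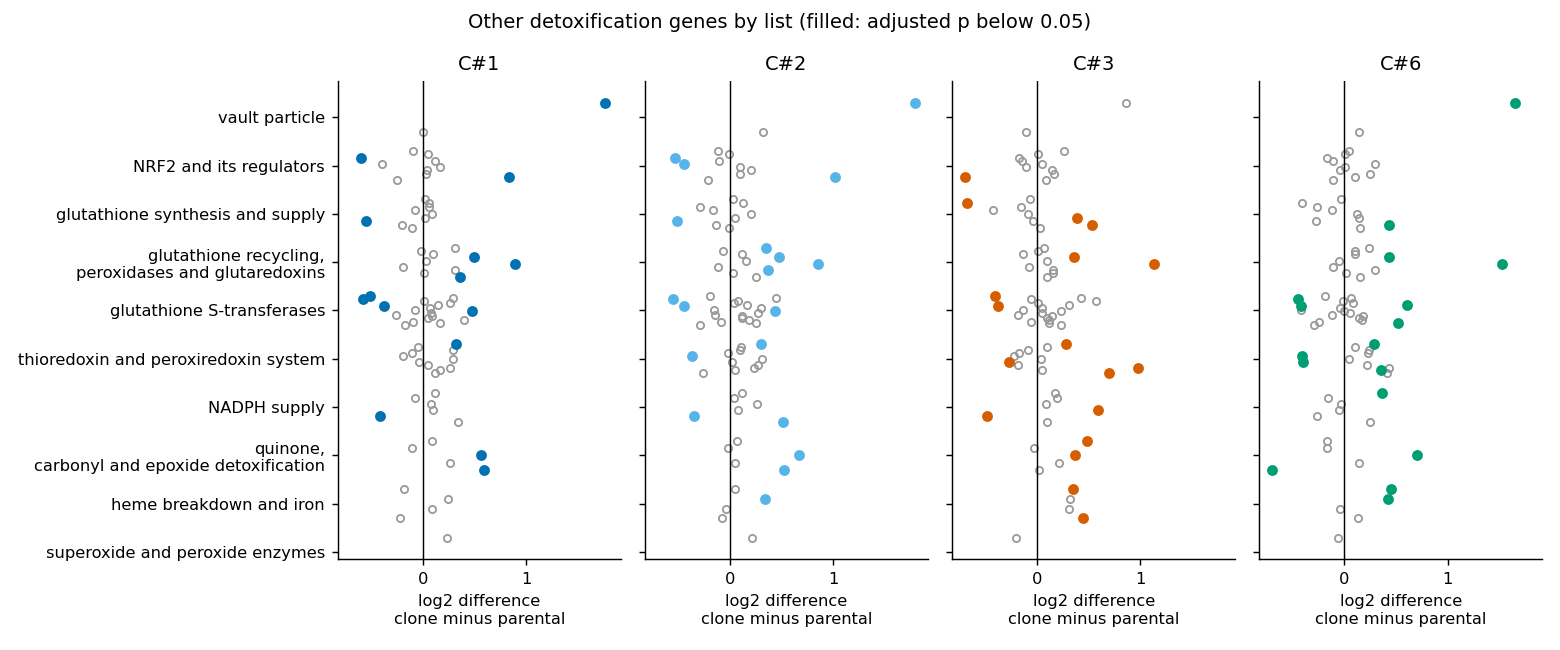
Log2 difference from parental BT474 (x axis) of each tested pathway gene by list (y axis), 1 panel per clone, with the 5 measured members left out. Filled points passed an adjusted p of 0.05 and open points did not. The point furthest right is VTRNA1-1 in C#1, C#2 and C#6 and GPX2 in C#3, and most of the 76 genes stay within 0.5 of 0.

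Among glutathione-dependent peroxidases and glutaredoxins, 3 of the 10 tested rose in C#1, 4 in C#2, 2 in C#3 and 2 in C#6. Higher calls made up 6.03%, 5.47%, 6.22% and 7.73% of all genes in that order. No gene of this list was called lower, where lower calls made up 11.2%, 11.5%, 11.0% and 14.7% of all genes. GPX2, a selenium enzyme of epithelia that spends glutathione on peroxides, averaged 6.25 ± 0.53 in C#1, 6.20 ± 0.32 in C#2, 6.49 ± 0.28 in C#3 and 6.88 ± 0.32 in C#6, against 5.36 ± 0.20 in parental cells (log2, SD, n = 3). Its differences were 0.90 (adjusted p = 0.0146), 0.85 (0.0199), 1.13 (0.00332) and 1.53 (0.000215). Every clone array of GPX2 lay above the parental ones, as for 3.04% of all genes. The C#1 call was lost without parental replicate 3 (0.78) or C#1 replicate 2 (0.61), and the C#2 call without parental replicate 3 (0.74) or C#2 replicate 2 (0.66). GSR, which regenerates reduced glutathione, rose by 0.36 in C#1 (adjusted p = 0.0129), a call lost without parental replicate 1 (0.34) or C#1 replicate 2 (0.33). In the other clones GSR differed by 0.25, 0.10 and 0.15, with adjusted p from 0.0742 to 0.518.

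Of the pathway genes, 4 of 76 rose in all 4 clones, which is 5.26% against 1.04% of all genes, and 1 fell in all 4, which is 1.32% against 3.65%. The first were GPX2, CBR3, GLRX5 and PRDX1, of which the last 2 were picked out after their values were seen. CBR3, a carbonyl reductase, rose by 0.56 in C#1, 0.67 in C#2, 0.36 in C#3 and 0.70 in C#6 (highest adjusted p = 0.0254). Its C#3 call was lost without parental replicate 2 (0.36), parental replicate 3 (0.31) or C#3 replicate 1 (0.30). GLRX5, a mitochondrial glutaredoxin of iron-sulfur cluster assembly, rose by 0.49 in C#1, 0.48 in C#2, 0.35 in C#3 and 0.43 in C#6 (highest adjusted p = 0.0207). In C#3 that call was lost without parental replicate 2 or 3 or C#3 replicate 1 or 3. PRDX1, an abundant peroxiredoxin, rose by 0.33 in C#1, 0.30 in C#2, 0.28 in C#3 and 0.29 in C#6 (highest adjusted p = 0.0457), and each of these calls was lost without any 1 parental array. They were also lost without C#1 replicate 1 or 2 in C#1, C#2 replicate 1 or 2 in C#2, C#6 replicate 2 or 3 in C#6, and in C#3 without any of its own arrays, C#1 replicate 2, C#2 replicate 1 or C#6 replicate 2 or 3. In C#2, C#3 and C#6 the PRDX1 call was also lost when arrays were centred on their median (0.28, 0.27 and 0.27), and in C#2 and C#3 in the 6-array fit. GSTM4, also picked out after its values were seen, fell by 0.37 in C#1, 0.44 in C#2, 0.37 in C#3 and 0.42 in C#6 (highest adjusted p = 0.0412). It lost the call in every clone without parental replicate 1, in C#1 and C#3 without parental replicate 2 or 3, and without C#1 replicate 1 or 3 or C#6 replicate 2 (C#1), C#2 replicate 1 (C#2), C#3 replicate 2 or 3 (C#3) or C#6 replicate 1 (C#6). It also lost it in C#1, C#3 and C#6 after renewed quantile normalization (-0.30, -0.31 and -0.31), and in C#1 with the replicate block. Its probes may also read close relatives of the GSTM family.

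Of the 18 glutathione transferases tested besides GSTA4, 1 rose and 3 fell in C#1, 1 rose and 2 fell in C#2, none rose and 2 fell in C#3, and 2 rose and 2 fell in C#6. The shares called, 22.2%, 16.7%, 11.1% and 22.2%, were near or below the 17.2%, 16.9%, 17.2% and 22.4% of all genes, except in C#1. GSTO2, an omega-class form, rose by 0.47 in C#1 and 0.44 in C#2, the C#2 call being lost without parental replicate 3 (0.34). MGST2, a microsomal form, rose by 0.52 in C#6, a call lost without C#6 replicate 3 (0.39). Both were named after their values were seen. GSTM3 rose by 0.61 in C#6 (adjusted p = 0.000964) and differed by 0.15 to 0.31 in the other clones with no call. GSTK1, a mitochondrial and peroxisomal form named after its values were seen, fell by 0.58 in C#1, 0.55 in C#2 and 0.45 in C#6. Its C#6 call (adjusted p = 0.0154) was lost without parental replicate 1 (-0.38) and after renewed quantile normalization (-0.32). GSTP1, a form often raised in drug-resistant tumours, was called in no clone (0.05 to 0.27, lowest adjusted p = 0.194).

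Glutathione synthesis could be read only in part, since 9 of 17 listed genes were tested and the cystine carrier SLC7A11 is not analysed here. GSS, which joins the last amino acid of glutathione and was named after its values were seen, rose by 0.53 in C#3 (adjusted p = 0.00624) and by 0.43 in C#6 (0.016). The C#6 call was lost without parental replicate 2 (0.37) or C#6 replicate 2 (0.38) or 3 (0.38). In C#1 and C#2 GSS differed by -0.20 and -0.13 with no call. CBS, which feeds homocysteine into cysteine, fell by 0.68 in C#3 (adjusted p = 0.00487), and differed by 0.06 in C#1, 0.13 in C#2 and -0.41 in C#6 (adjusted p = 0.0579 in C#6).

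In the thioredoxin list of 11 genes, 1 rose in C#1, 1 rose and 1 fell in C#2, 3 rose and 1 fell in C#3, and 2 rose and 2 fell in C#6. The shares called were 9.09%, 18.2%, 36.4% and 36.4%, against 17.2%, 16.9%, 17.2% and 22.4% of all genes. TXNIP, which binds and blocks thioredoxin, averaged 10.05 ± 0.10 in C#3 against 9.08 ± 0.11 in parental cells (log2, SD, n = 3), a rise of 0.97 (adjusted p = 0.00129). Its second probe set gave 0.82 for the same comparison. TXNRD3, a reductase related to TXNRD1 and best known from testis, rose by 0.69 in C#3 (adjusted p = 0.00327) and differed by 0.41 in C#6 (adjusted p = 0.0503). TXN, thioredoxin itself, fell by 0.40 in C#6 (adjusted p = 0.00426) and by 0.27 in C#3 (adjusted p = 0.0463). The C#3 call was lost without any of 10 single arrays: parental replicates 1 and 3, C#1 replicate 2, all 3 of C#2, C#3 replicates 1 and 3, and C#6 replicates 2 and 3. It was lost as well after renewed quantile normalization (-0.22), with the replicate block and in the 6-array fit.

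Of the 10 relatives and regulators of NRF2 tested, 1 rose and 1 fell in C#1, 1 rose and 2 fell in C#2, 1 fell in C#3 and none was called in C#6. The shares called were 20.0%, 30.0%, 10.0% and 0% in that order, against 17.2%, 16.9%, 17.2% and 22.4% of all genes. NFE2L3, a relative of NRF2, rose by 0.83 in C#1 (adjusted p = 0.00222) and 1.01 in C#2 (0.000518) and fell by 0.70 in C#3 (0.00756). In C#6 it differed by 0.11 (adjusted p = 0.706). KEAP1, the NRF2 inhibitor, fell by 0.45 in C#2 (adjusted p = 0.0388) and differed by -0.40 in C#1 (0.0653), 0.04 in C#3 and 0.30 in C#6. Its C#2 call was lost without any 1 parental array, without C#2 replicate 1 or 2, and at -0.36 after renewed quantile normalization. DPP3, a peptidase that binds KEAP1, fell by 0.59 in C#1 (adjusted p = 0.0264) and 0.53 in C#2 (0.0462), and both calls were lost without any 1 parental array. The C#1 call was also lost without C#1 replicate 1 or 3, and the C#2 call without any 1 C#2 array, C#1 replicate 3 or C#3 replicate 3. In C#2 it was lost too with no dim filter and, at -0.47, after renewed quantile normalization.

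Among the remaining lists, RPIA of the pentose phosphate path rose by 0.59 in C#3 (adjusted p = 0.00147) and differed by -0.05 to 0.10 elsewhere with no call. TALDO1 of the same path, named after its values were seen, fell by 0.41 in C#1, 0.35 in C#2 and 0.49 in C#3. It lost its C#1 call without parental replicate 3 (-0.34) and its C#2 call without parental replicate 3 (-0.28) or C#2 replicate 2 (-0.32) or 3 (-0.34), and at -0.27 after renewed quantile normalization. PTGR1, which reduces lipid aldehydes and ketones, split the clones. It averaged 8.68 ± 0.07 in C#1, 8.61 ± 0.16 in C#2, 8.11 ± 0.06 in C#3 and 7.40 ± 0.13 in C#6, against 8.09 ± 0.13 in parental cells. It rose by 0.59 in C#1 (adjusted p = 0.00139) and 0.52 in C#2 (0.00326), fell by 0.70 in C#6 (0.000238) and differed by 0.02 in C#3 (0.92). The 12 listed efflux pumps are not analysed here.

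The position of MVP and GSTA4 on their chromosomes was compared with the genes tested nearest to them in RefSeq order, 5 on each side. Around MVP on chromosome 16, none of the 10 neighbours rose in C#1, C#2 or C#3, where limma called 4, 4 and 1 lower. In C#6, 1 rose and 1 fell. Over all genes, lower calls made up 11.2% in C#1, 11.5% in C#2, 11.0% in C#3 and 14.7% in C#6. Higher calls made up 6.03%, 5.47%, 6.22% and 7.73% in that order. The median difference of the 10 neighbours was -0.24 in C#1, -0.19 in C#2, -0.01 in C#3 and 0.06 in C#6. CDIPT, a phosphatidylinositol synthase and the next tested gene after MVP, fell by 0.71 in C#1 (adjusted p = 0.000186) and 0.50 in C#2 (0.00228). SEZ6L2 fell by 0.76 in C#1 (adjusted p = 0.00374) and 0.60 in C#2 (0.0173). Its C#2 call was lost without parental replicate 1 or 3 or C#2 replicate 2 or 3. MAZ, a zinc finger factor, fell in all 4 clones by 0.40 to 0.55, and its C#3 call alone held without any 1 array. It was lost in C#1 without parental replicate 2 or 3 or C#1 replicate 1 or 3, in C#2 without parental replicate 2 or 3 or C#2 replicate 1 or 2, and in C#6 without any 1 parental array or C#6 replicate 1, and at -0.35 after renewed quantile normalization and in the 6-array fit. Of the 11 neighbour calls around MVP, 7 were lost without at least 1 array, parental arrays among them. Around GSTA4 on chromosome 6, 0 of 10 neighbours were called higher by limma in any clone, and 2, 1, 1 and 0 were lower. The shares of all genes to set beside these counts are those given for the neighbours of MVP. GSTA1, a paralog in the same cluster, fell by 0.51 in C#1 (adjusted p = 0.00173) and 0.41 in C#3 (0.00858). GSTA3, the adjacent tested paralog, differed by 0.07 to 0.44 and was not called (lowest adjusted p = 0.153).

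**Figure D4:**
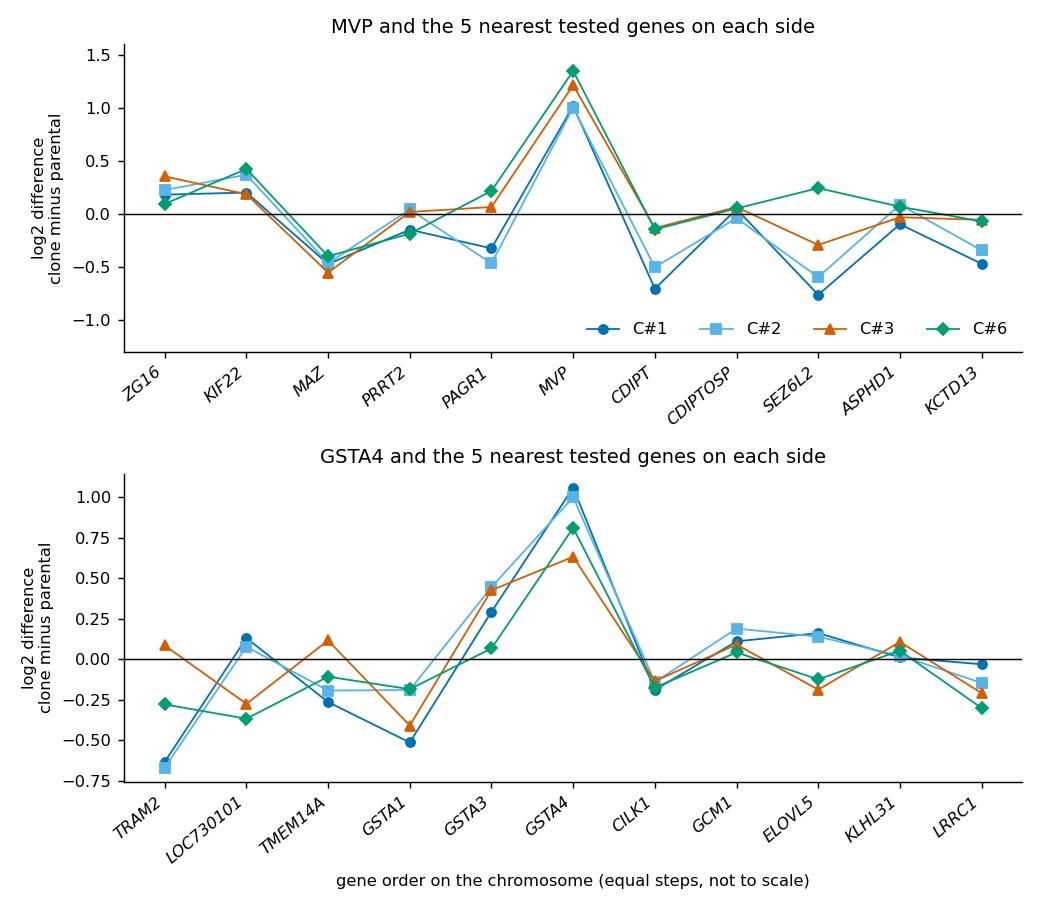
Log2 difference of each clone from parental BT474 (y axis) for MVP (top) and GSTA4 (bottom) and the 5 nearest tested genes on each side in chromosome order (x axis, equal steps), with the lines joining the genes of 1 clone. MVP and GSTA4 stand above their neighbours in every clone.

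Over the 15 arrays, the 5 genes most like MVP by Pearson correlation were RRBP1 (0.95), COX4I1 (0.95), CXCR4 (0.94), IWS1 (0.93) and POMK (0.92). These values rest on 5 groups and are mostly set by the gap between clones and parental cells. With each group mean removed, the same correlations were 0.80 for RRBP1, 0.64 for COX4I1, 0.69 for CXCR4, 0.54 for IWS1 and 0.11 for POMK. The 5 genes were picked by their correlation over these same arrays, so these values are no independent check. Within the gene set, MVP correlated over the 15 arrays at 0.85 with GPX2, 0.73 with VTRNA1-1, 0.72 with GSTA4, 0.17 with TXNRD1, 0.12 with HMOX1 and -0.51 with NFE2L2. With group means removed, these were 0.26, 0.49, -0.08, -0.27, 0.26 and -0.09. Within the gene set, the highest value with group means removed was that of VTRNA1-1, below those of RRBP1, CXCR4, COX4I1 and IWS1. All these correlations come from the same arrays, normalized together.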

How the data were processed

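Total RNA of 5 groups of 3 samples was measured on Affymetrix gene arrays. The deposited values, made by the authors, are log2 expression of 53617 probe sets per array. The submitters' processing notes name RMA, the Transcriptome Analysis Console and Affymetrix Expression Console 1.4.1; their roles are not given in the sources used here. The background correction and scaling in RMA compress small changes near background and remove shifts of most genes. Symbols came from the platform annotation, updated through RefSeq: 16098 probe sets had 1 symbol, and 37519 had none and were not used here.

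A probe set passed the dim limit if it exceeded the 40th percentile of the array on 3 or more arrays, and the highest mean stood for a gene, leaving 12147 genes. limma 3.58.1 in R 4.3.3 (lmFit, eBayes, 10 residual degrees of freedom) fitted 1 mean per group to 15 arrays. A call is an adjusted p (Benjamini-Hochberg over all genes within a comparison) below 0.05. The steps were tested on simulated data. Replicates are separate samples per the labels, and their number limits the precision.

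The members and lists were chosen with earlier results of these data known. Named pathway genes are those called at 1.5-fold or more in any clone, plus GSR, KEAP1, SLC7A11, GSTP1, TXN and 1 more fixed by name, which is not reported here. Alternatives were other dim filters, renewed quantile normalization, median centring, the replicate block, each array left out, 6-array fits, trend and robust eBayes, array weights, probe set means and a stricter threshold. Promoter windows came from RefSeq (GRCh38.p14). Figures used matplotlib 3.10.9 in Python 3.11.15.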

Additional observations from a re-analysis of the deposited data

Results flagged for a closer look

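Each difference below separated a pair of clones by limma's test (first clone minus second, log2, adjusted over all genes tested, 3 arrays a clone). They are given as values, and no pair of C#1 and C#2 is among them. The genes compared over the 6 pairs were the members, the pathway genes called at 1.5-fold or in every clone or fixed by name, and GSS, GSTK1, GSTA1 and TALDO1. Most were thus named for being called or after their values were seen. Their number of calls is therefore not read against the 0% to 16.8% of all genes called in a pair. Of the 42 differences, 27 kept the call without any 1 array and 15 lost it without at least 1, as given here or, for GSTA4, TXNRD1 and VTRNA1-1, above. Apart from the stricter threshold of 0.01, which 16 missed, 12 lost the call under an alternative that kept all arrays or fitted only the 6 compared, 2 of them among the 27. The 6-array fit ended 9: GSTA4, TXNRD1 and KEAP1 for C#1 minus C#3, CBS for C#1 and for C#2 minus C#6, GSTM3 for C#2 minus C#6, TXN for C#1 minus C#6 and for C#2 minus C#3, and GSTA1 for C#1 minus C#6. Median centring and array weights each also ended KEAP1 for C#1 minus C#3 and TXN for C#2 minus C#3. CBS for C#1 minus C#6 was lost too with no dim filter and after renewed quantile normalization, GSTA1 for C#1 minus C#6 with array weights and with trend and robust settings, and VTRNA1-1 for C#1 minus C#3 with trend and robust settings. With the mean of both TXNIP probe sets, neither TXNIP difference was called.

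Among the members, GSTA4 stood at 0.43 for C#1 minus C#3 (adjusted p = 0.0247), and TXNRD1 at -0.33 for C#1 minus C#3 (adjusted p = 0.0279). The vault RNA VTRNA1-1 stood at 0.90 for C#1 minus C#3 (adjusted p = 0.0416) and 0.93 for C#2 minus C#3 (adjusted p = 0.037). Of the NRF2 relatives and regulators, NFE2L3 differed by 1.53 for C#1 minus C#3 (adjusted p = 1.17e-05), 0.73 for C#1 minus C#6 (adjusted p = 0.00737), 1.71 for C#2 minus C#3 (adjusted p = 4.64e-06), 0.91 for C#2 minus C#6 (adjusted p = 0.0016) and -0.80 for C#3 minus C#6 (adjusted p = 0.00503). For KEAP1 the differences were -0.44 for C#1 minus C#3 (adjusted p = 0.0413), -0.70 for C#1 minus C#6 (adjusted p = 0.0036), -0.49 for C#2 minus C#3 (adjusted p = 0.0251) and -0.75 for C#2 minus C#6 (adjusted p = 0.00232). KEAP1 lost the call of C#1 minus C#3 without any 1 parental array, C#1 replicate 1 or 3 or C#3 replicate 2 or 3, and that of C#2 minus C#3 without C#2 replicate 1 or 2 or C#3 replicate 2 or 3.

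In glutathione metabolism, CBS gave 0.74 for C#1 minus C#3 (adjusted p = 0.00258), 0.47 for C#1 minus C#6 (adjusted p = 0.047), 0.80 for C#2 minus C#3 (adjusted p = 0.00132) and 0.54 for C#2 minus C#6 (adjusted p = 0.0266). CBS lost the call of C#1 minus C#6 without parental replicate 1 or 2, any 1 C#1 array, C#2 replicate 2 or 3, C#3 replicate 2 or C#6 replicate 2 or 3, and that of C#2 minus C#6 without C#2 replicate 1 or 3 or C#6 replicate 2 or 3. GSS gave -0.73 for C#1 minus C#3 (adjusted p = 0.000544), -0.64 for C#1 minus C#6 (adjusted p = 0.00233), -0.66 for C#2 minus C#3 (adjusted p = 0.00124) and -0.57 for C#2 minus C#6 (adjusted p = 0.00556). Among transferases, GSTM3 gave -0.45 for C#1 minus C#6 (adjusted p = 0.0132) and -0.44 for C#2 minus C#6 (adjusted p = 0.0172). GSTM3 lost the call of C#1 minus C#6 without C#1 replicate 2 or 3, and that of C#2 minus C#6 without C#2 replicate 2 or 3 or C#6 replicate 1. GSTK1 gave -0.52 for C#1 minus C#3 (adjusted p = 0.00792) and -0.49 for C#2 minus C#3 (adjusted p = 0.0122). GSTK1 lost the call of C#2 minus C#3 without C#2 replicate 2. GSTA1 gave -0.33 for C#1 minus C#6 (adjusted p = 0.0353). GSTA1 lost the call of C#1 minus C#6 without C#1 replicate 1 or 3 or C#6 replicate 1 or 2.

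In the thioredoxin system, TXNRD3 gave -0.57 for C#1 minus C#3 (adjusted p = 0.0109), -0.95 for C#2 minus C#3 (adjusted p = 0.000259) and -0.67 for C#2 minus C#6 (adjusted p = 0.00551). TXNRD3 lost the call of C#1 minus C#3 without C#1 replicate 1 or C#3 replicate 2. The values of TXNIP were -0.71 for C#1 minus C#3 (adjusted p = 0.0103) and -0.74 for C#2 minus C#3 (adjusted p = 0.00804). TXNIP lost the call of C#1 minus C#3 without C#1 replicate 2. Those of TXN were 0.36 for C#1 minus C#6 (adjusted p = 0.0132), 0.29 for C#2 minus C#3 (adjusted p = 0.0346) and 0.42 for C#2 minus C#6 (adjusted p = 0.00566). TXN lost the call of C#2 minus C#3 without any 1 C#2 array or C#3 replicate 1 or 3. RPIA separated C#3 from the others, at -0.50 for C#1 minus C#3 (adjusted p = 0.00471), -0.52 for C#2 minus C#3 (adjusted p = 0.00374) and 0.64 for C#3 minus C#6 (adjusted p = 0.00131). PTGR1 separated 5 of the 6 pairs, at 0.57 for C#1 minus C#3 (adjusted p = 0.00175), 1.28 for C#1 minus C#6 (adjusted p = 1.35e-06), 0.50 for C#2 minus C#3 (adjusted p = 0.00443), 1.22 for C#2 minus C#6 (adjusted p = 2.23e-06) and 0.72 for C#3 minus C#6 (adjusted p = 0.000442).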

How the results depend on the processing

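The GSTA4 calls against parental cells held under every alternative run, and MVP kept its direction in all of them. Both genes were listed with earlier results of these data known, and the alternatives use the same arrays. For the 4 tested members, the count of 2 in C#1 was 1 after renewed quantile normalization and 1 at an adjusted p of 0.01, that of 2 in C#2 was 1 at 0.01, and that of 1 in C#3 was 2 after quantile normalization and 2 with array weights. Leaving out 1 array gave 1 to 2 in C#1 and in C#2, and 1 in C#3 and in C#6. Pathway counts of 15, 19 and 17 in C#1, C#2 and C#6 were 9, 8 and 11 at 0.01, and that of C#6 was 29 with array weights. With 1 array left out, they ranged from 9 to 17 in C#1, 9 to 19 in C#2, 12 to 20 in C#3 and 13 to 20 in C#6, the lowest without parental replicate 3 in the first 3 and without C#6 replicate 2 in C#6. The F test among clones called 1 member, GSTA4, with the stricter filter, quantile normalization, the replicate block or trend and robust settings, and 2 with array weights, and between 0 and 1 with an array left out (1 without C#6 replicate 1). Calls between clones, 2 of 30, were 0 in 6-array fits and 0 at 0.01, and 0 to 3 with an array left out (0 without C#1 replicate 2 or C#3 replicate 3).

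The sign of TXNRD1 turned to 0.0117 in C#1 and 0.11 in C#6 after quantile normalization. With an array left out, TXNRD1 ranged from -0.0319 (without C#2 replicate 2) to 0.0822 in C#2 and from -0.0529 to 0.0495 (without C#6 replicate 2) in C#6, and HMOX1 in C#6 from -0.0613 (without parental replicate 3) to 0.0815; none of these was called either way. Over the single genes, alternatives other than leaving out arrays left 1178 results unchanged, moved 93 below the threshold and 3 past it, and turned the sign of 2. Unchanged means on the same side of the threshold. For MVP, which has no test here, it means a shift smaller than the spread within groups. Most of these results were entered because they were called, so few could move past the threshold, and 93 and 3 are not to be compared. The cause of these shifts was not tested.

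Replicate numbers did not meet the mark set for pairing, a correlation above 0.1 in every pair. Same-numbered arrays of different groups correlated in their deviations from the group means at -0.13 to 0.46 (median 0.05), above 0.1 in 10 of 30 pairs, and other-numbered arrays at -0.38 to 0.23 (median -0.02), above 0.1 in 7 of 60. In 9 of 15 arrays the mean correlation was highest with the array's own number, which is a hint from the data and not from the design. With the replicate block, the members called remained 2, 2, 1 and 1 in number, and the pathway genes called were 16, 19, 20 and 20.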
